A study of Mus musculus with 15 samples.

Results

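The 40 genes described here code for the proteins that fill, dock, fuse and retrieve synaptic vesicles, or that make and load the transmitters nerve cells release. They were taken from a fixed list of mouse symbols, which was matched to the Ensembl identifiers of the count files through GENCODE M21 on GRCm38, and all 40 were found among the 55421 genes counted. The list was split by where the genes are best known to act. Retinal ribbon and glutamate synapses account for 9 genes (Slc17a7, Slc17a6, Cplx3, Cplx4, Sv2b, Bsn, Pclo, Rims2 and Erc2). Autonomic nerves account for 5 (Th, Dbh, Slc18a2, Slc18a3 and Chat). Slc32a1, which loads the inhibitory transmitters GABA and glycine, stands alone, and the other 25 are release machinery shared by most synapses. RNA was sequenced from posterior eyecups, that is RPE, choroid and sclera with the neural retina removed, of 2.5-month-old mice on the C57BL/6J background. Of the 15 mice 4 were WT, 6 had 1 mutant copy of Tmem135 (FUN025/+) and 5 had 2 mutant copies (FUN025/FUN025), with 1 library per mouse made from its pooled eyecups. Mice of both sexes were used, and the sex of each library is not labelled. The mutation is carried by every cell of the mutant mice, so no cell type is singled out by the model.

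A synaptic vesicle is loaded by a transporter in its membrane, held near the plasma membrane by active zone proteins, and fused by SNARE proteins once a synaptotagmin binds calcium. Photoreceptors and bipolar cells of the retina release glutamate continuously at a ribbon, a plate of protein on which vesicles are tethered, and use complexins 3 and 4 there in place of the complexins of other synapses. The choroid of the eyecup has no such synapses, but it is reached by sympathetic fibres, which make noradrenaline with tyrosine hydroxylase (Th) and dopamine beta-hydroxylase (Dbh), and by parasympathetic fibres, which make acetylcholine with choline acetyltransferase (Chat). Most cell bodies of these fibres lie in ganglia outside the eye. Several genes of the release machinery also serve secretion in cells that are not neurons.

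The sequences just upstream of 5 genes are shown because these genes took different courses across the libraries: Slc17a7 and Syp followed the rod markers, Sv2b was high in every library, and Slc18a2 was present in every library while Th was near the limit of detection. Each is the 300-base RefSeq promoter window of GRCm38.p6, from 250 bases before the start site, written 5′ to 3′ on the strand of the gene. Capitals mark 2 motifs, searched on both strands without overlap between them: TAATCC (or GGATTA), the core letters bound by the eye homeobox factors CRX and OTX2, and the palindrome TGACGTCA, the cyclic AMP response element.
Slc17a7, chr7:45163671-45163970 (forward strand): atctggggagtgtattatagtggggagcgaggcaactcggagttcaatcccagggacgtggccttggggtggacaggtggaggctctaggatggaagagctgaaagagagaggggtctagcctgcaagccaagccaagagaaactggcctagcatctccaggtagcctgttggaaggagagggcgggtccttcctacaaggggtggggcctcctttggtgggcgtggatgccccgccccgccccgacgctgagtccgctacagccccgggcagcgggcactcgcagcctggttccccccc
Syp, chrX:7638330-7638629 (forward strand): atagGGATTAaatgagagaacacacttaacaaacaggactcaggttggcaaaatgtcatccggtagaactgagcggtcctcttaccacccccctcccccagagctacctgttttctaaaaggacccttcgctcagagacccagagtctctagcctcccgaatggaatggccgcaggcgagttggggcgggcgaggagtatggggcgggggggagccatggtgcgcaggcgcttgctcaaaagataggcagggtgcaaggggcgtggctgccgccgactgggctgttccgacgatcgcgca
Sv2b, chr7:75309213-75309512 (reverse strand): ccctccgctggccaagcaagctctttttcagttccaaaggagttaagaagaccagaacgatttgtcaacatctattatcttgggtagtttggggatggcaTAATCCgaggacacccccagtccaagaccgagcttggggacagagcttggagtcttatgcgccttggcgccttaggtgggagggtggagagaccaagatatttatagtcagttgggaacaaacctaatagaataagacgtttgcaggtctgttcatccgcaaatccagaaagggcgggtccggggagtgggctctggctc
Slc18a2, chr19:59260628-59260927 (forward strand): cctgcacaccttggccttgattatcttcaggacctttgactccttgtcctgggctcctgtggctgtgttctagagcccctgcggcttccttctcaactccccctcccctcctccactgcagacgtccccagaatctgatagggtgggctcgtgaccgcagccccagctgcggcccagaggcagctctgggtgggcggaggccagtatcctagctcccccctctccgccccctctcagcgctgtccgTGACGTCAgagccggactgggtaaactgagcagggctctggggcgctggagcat
Th, chr7:142899946-142900245 (reverse strand): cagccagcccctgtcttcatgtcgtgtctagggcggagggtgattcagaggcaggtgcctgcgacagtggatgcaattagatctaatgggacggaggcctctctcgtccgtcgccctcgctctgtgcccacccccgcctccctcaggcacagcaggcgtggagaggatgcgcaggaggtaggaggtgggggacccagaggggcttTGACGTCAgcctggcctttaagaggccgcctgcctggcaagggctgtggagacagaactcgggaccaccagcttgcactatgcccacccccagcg

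RefSeq promoter windows were found for 34 of the 40 genes, 43 windows in all. TAATCC was present in 3 of these windows, which belong to Syp and Sv2b, and in 7.06% of all 32851 windows. The Sv2b window shown is 1 of 4 for that gene. TGACGTCA was present in the windows of 4 genes (Slc18a2, Th, Syn1 and Sh3gl2) and in 1.79% of all windows. The window of Slc17a7 holds neither string. The match in Slc18a2 begins 4 bases before the start site and that in Th 45 bases before it. These matches are letters in a window, and the data at hand do not measure binding.

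Total counts were between 18094977 and 20029919 in WT libraries, between 10903183 and 13456349 in FUN025/+ libraries and between 11053535 and 15038383 in FUN025/FUN025 libraries, so every WT library was deeper than every mutant library. CPM here means counts per 1000000 counts after TMM scaling of the library. As a detection floor, 3 counts per library were used, equal to 0.1496 CPM in the deepest and 0.282 CPM in the shallowest library; it allows for counting error alone. Tmem135 itself was between 59.7 and 66.1 CPM in WT eyecups, between 66.0 and 86.1 CPM in FUN025/+ eyecups and between 82.4 and 93.8 CPM in FUN025/FUN025 eyecups; its level does not test the labels, since the mutation does not remove the gene. The 11 rod photoreceptor markers also had counts in every library, although the neural retina had been removed. Their summed level was 743, 2442, 479 and 249 CPM in WT replicates 1 to 4. In FUN025/+ eyecups it was 94.1 CPM at the lowest, 161 CPM at the median and 714 CPM at the highest, and in FUN025/FUN025 eyecups it was 106, 445, 429.9, 217 and 98.7 CPM. WT replicate 2 therefore stands apart from the other 14 libraries, and the comparisons with WT are also given without it. Pigment epithelium, melanocyte and choroid endothelium markers, led by Rgr, Dct and Kdr, summed to 14494 to 19486, 7893 to 9929 and 387 to 599 CPM. Of other retinal lists, bipolar (692 to 1163 CPM, mostly Trpm1, which melanocytes also express), amacrine (333 to 400.1 CPM, mostly Slc6a9) and Muller glia markers (1852 to 2316 CPM, mostly Glul) had sums set by 1 abundant gene each, cone markers were 51.6 to 96.6 CPM, with Pde6h highest, ganglion cell markers 55.2 to 77.7 CPM, with Rbpms highest, and the 3 horizontal cell markers, led by Onecut2, at most 0.859 CPM. Less abundant bipolar and amacrine markers were highest in WT replicate 2: Grm6 was 10.5 CPM there and at most 3.33 CPM elsewhere, Cabp5 4.67 CPM against at most 1.47 CPM, and Gad1 16.7 CPM against at most 3.23 CPM. Immune markers, led by Csf1r, were 278 to 369.5 CPM.

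Levels per length were compared as CPM per kilobase of exon. Among the 40 genes, Syn3, Vamp2, Syt4 and Sv2b were highest, with means over 15 libraries of 204, 55.0, 38.6 and 37.1 CPM per kilobase. Vamp2 is the vesicle SNARE, Syt4 a synaptotagmin of dense-core and synaptic vesicles, and Sv2b a glycoprotein of the vesicle membrane. The next highest were Sv2a (14.9), Rab3a (11.5), Dnm1 (9.23) and Syt11 (8.74 CPM per kilobase). The lowest were Dbh (0.0665) and Chat (0.0404 CPM per kilobase). The value of Syn3, a synapsin, is uncertain: 14.1% of its exon bases lie under Timp3, a gene of the opposite strand that was between 4453 and 6088 CPM, and no strand setting is given, so reads of the shared stretch cannot be told apart. Overlaps of over 8% were also present for Syt4 (14.5%, with Gm26658), Syp (16.8%, with Gm14703), Slc32a1 (24.9%, with Gm14205) and Rab3b (8.996%, with 8030443G20Rik).

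**Figure D1:**
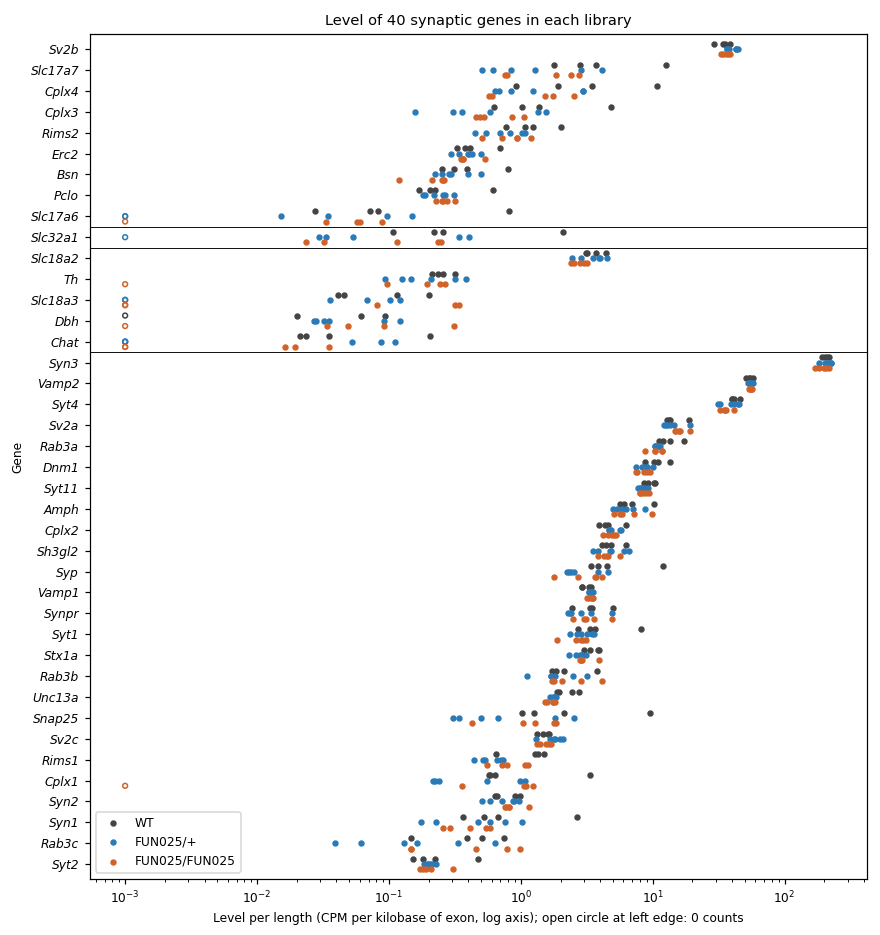
Level of each of the 40 genes in every library, in CPM per kilobase of exon on a log axis, coloured by genotype; open circles at the left edge are libraries with 0 counts. From top to bottom the blocks are the ribbon and glutamate genes, Slc32a1, the autonomic genes and the shared release machinery. Syn3, Vamp2, Syt4 and Sv2b sit at the right with little spread, whereas WT replicate 2 is the far-right black point of Slc17a7, Cplx4, Cplx3 and Snap25.

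The low-count filter kept 34 of the 40 genes. The 6 that were not tested were Slc17a6, Slc32a1, Th, Dbh, Slc18a3 and Chat. In 21 of the 34 tested genes the highest of all 15 libraries was WT replicate 2. The coefficient of variation over the 15 libraries was under 15% for 8 genes and over 50% for 8. Vamp2 was the steadiest, at 194 to 221 CPM. Snap25, the SNARE of the plasma membrane, was among the most variable, at 2.07 to 64.5 CPM, a range of 31.2-fold.

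**Figure D2:**
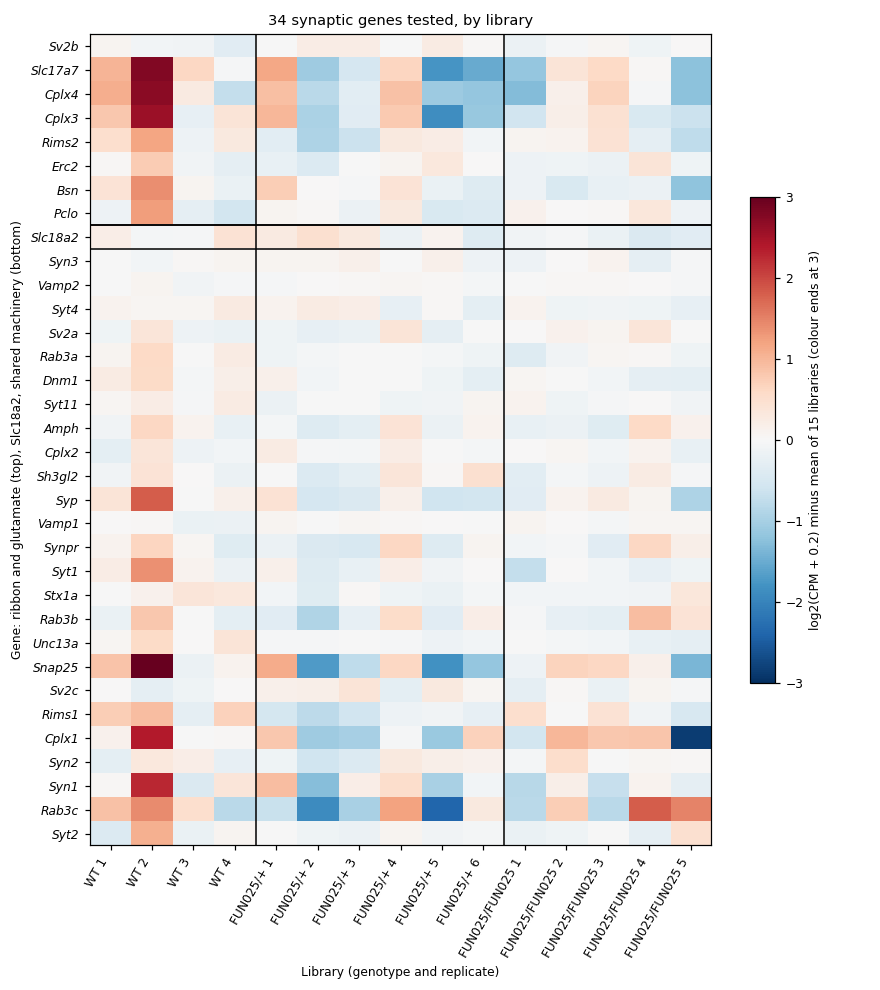
Each row is 1 of the 34 genes tested and each column 1 library; the colour is log2(CPM + 0.2) minus the mean of the gene over 15 libraries, and black lines separate the genotypes and the gene groups. The column of WT replicate 2 is red for most genes, and Slc17a7, Cplx4, Cplx3 and Snap25 show a similar order of libraries, while Vamp2, Syn3 and Vamp1 are nearly white throughout.

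Among the ribbon and glutamate genes, Slc17a7, the vesicular glutamate transporter of photoreceptors and bipolar cells, ran in parallel with the rod markers. Its level was 19.9, 67.6, 15.1 and 9.60 CPM in WT replicates 1 to 4, and 4.26, 12.9, 14.9, 10.01 and 4.08 CPM in FUN025/FUN025 replicates 1 to 5. In FUN025/+ eyecups it was 2.72 CPM at the lowest, 5.73 CPM at the median and 22.2 CPM at the highest. The genotypes overlapped, and the highest and lowest libraries were those with the highest and among the lowest rod levels. For each 1000 CPM of summed rod markers there were between 26.9 and 46.1 CPM of Slc17a7, a spread of 1.72-fold, while the rod sum itself spread 26.0-fold. Cplx4 gave between 7.12 and 13.6 CPM per 1000 CPM of rod markers, and Cplx3 between 3.85 and 13.8 CPM.

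The relation was tested over the 15 mice with log2 CPM (prior count 2) and the mean log2 CPM of the 11 rod markers, by a two-sided permutation test with 100000 resamples, in 34 relations. The p-values were adjusted over all 18968 genes tested, of which 1.25% passed 0.05. Pearson's r passed for 8 of the 34 genes: Slc17a7, Cplx4, Cplx3, Syp, Snap25, Syt1, Bsn and Dnm1. For Slc17a7 r was 0.989 and Spearman's rho was 0.982 (permutation p = 1e-05 for each, the smallest these resamples can give; adjusted p = 0.00287 and 0.00474). For Cplx4 r was 0.973 and rho 0.961, with the same p-values. The other r values that passed were 0.939 for Syp (synaptophysin, the major membrane protein of the vesicle), 0.932 for Cplx3, 0.931 for Snap25, 0.806 for Syt1 (the fast calcium sensor), 0.800 for Bsn and 0.796 for Dnm1. The rho passed for 5 of these 8, Slc17a7, Cplx4, Cplx3, Syp and Snap25.

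With the mean of each genotype subtracted, r passed for 8 genes, against 1.41% of all genes, with Pclo in place of Dnm1. Without the 2 mice farthest from the median rod level, which included WT replicate 2, r over 13 mice was 0.981 for Slc17a7 (adjusted p = 0.00998), 0.946 for Cplx4 (0.0158) and 0.905 for Syp (0.0389), by the same permutation test, and these 3 passed, against 0.227% of all genes. For Cplx3 r was then 0.869 (permutation test, adjusted p = 0.0506; rho 0.918, adjusted p = 0.0395) and for Snap25 0.871 (adjusted p = 0.0915). For Syt1, Bsn and Dnm1 r was then 0.595, 0.613 and 0.551 (permutation p = 0.0277, 0.0167 and 0.0538; adjusted p = 0.732, 0.658 and 0.827). The calls of r for these 5 genes were thus lost without those mice.

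**Figure D3:**
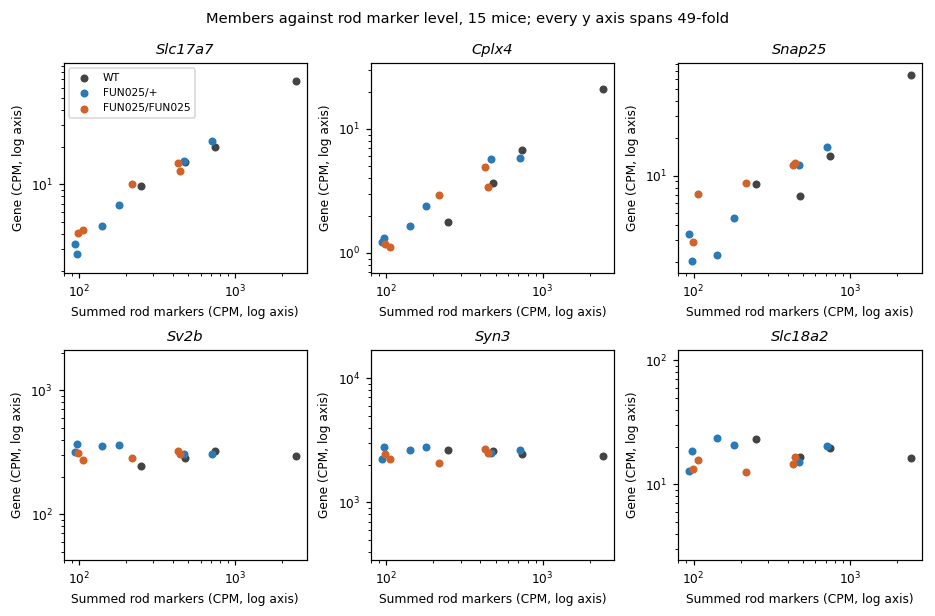
CPM of 6 genes against the summed CPM of the 11 rod markers in 15 mice, on log axes, with the same ratio from bottom to top in each panel, with points coloured by genotype. Slc17a7, Cplx4 and Snap25 rise along the rod level in all 3 genotypes, with WT replicate 2 at the upper right, while Sv2b, Syn3 and Slc18a2 lie flat.

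Sv2b behaved unlike the rest of its group. It was 325, 293, 287 and 245 CPM in WT replicates 1 to 4, and 274, 304, 321, 284 and 309.97 CPM in FUN025/FUN025 replicates 1 to 5. In FUN025/+ eyecups it was 305 CPM at the lowest, 338 CPM at the median and 369 CPM at the highest. WT replicate 2 was not high, and r with the rod level was -0.25 (permutation p = 0.362, adjusted p = 0.728). The scaffold genes of the active zone lay between these patterns. Bassoon (Bsn) and piccolo (Pclo), which organise the active zone and anchor the ribbon, were highest in WT replicate 2, at 12.7 and 13.8 CPM, and elsewhere between 1.90 and 7.92 CPM and between 3.77 and 7.14 CPM. Rims2, which links vesicles to calcium channels, ranged from 4.66 to 20.9 CPM, and Erc2, a scaffold of the active zone, from 2.86 to 6.77 CPM. Slc17a6, the glutamate transporter of retinal ganglion cells, had 82 counts in WT replicate 2 and at most 11 in any other library, and Slc32a1 had 109 counts there and at most 13 elsewhere.

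The autonomic genes did not move together. Slc18a2, the vesicular monoamine transporter, was well above the floor in every library, at 19.5, 16.4, 16.6 and 22.98 CPM in WT replicates 1 to 4 and 15.7, 16.4, 14.7, 12.6 and 13.3 CPM in FUN025/FUN025 replicates 1 to 5, with 12.8, 19.4 and 23.6 CPM as the lowest, median and highest in FUN025/+ eyecups. The enzymes that define noradrenergic and cholinergic fibres were near the floor. Th had at most 14 counts in any library and a mean of 0.489 CPM, Dbh at most 11 counts and 0.179 CPM, Chat at most 18 counts and 0.190 CPM, and Slc18a3, the vesicular acetylcholine transporter, at most 10 counts and 0.237 CPM. The 18 counts of Chat were in WT replicate 2, and the other WT libraries had 2 to 3. Differences between genotypes in these 4 genes were not detectable at this depth. Among the 5 autonomic genes of the list, Slc18a2 alone was thus well above the floor in every library. The r of Slc18a2 with the rod level was 0.12 (permutation p = 0.661, adjusted p = 0.886). Among 13 other genes of autonomic neurons, 9 were tested. Nos1, the neuronal nitric oxide synthase, and Ddc, the decarboxylase of dopamine and serotonin synthesis, were the highest, at means of 73.4 and 20.3 CPM, while Vip, Gal and Hand2 were among those the low-count filter removed.

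FUN025/+ eyecups were compared with WT eyecups to ask what 1 mutant allele changes. In edgeR's quasi-likelihood test over 18979 genes, 3 of the 34 genes fell and 0 rose at an adjusted p under 0.05. Of all genes tested 13.7% were called, 6.61% lower and 7.08% higher, so the share of called synaptic genes is near the background. Rims1 (chr1:22286251-22805994, reverse strand), a scaffold that primes vesicles at the active zone, was 9.89, 11.1, 4.74 and 9.49 CPM in WT replicates 1 to 4, and 3.27 CPM at the lowest, 4.41 CPM at the median and 5.35 CPM at the highest in FUN025/+ eyecups. The groups overlapped through WT replicate 3 alone. Its log2 fold change was -0.9999 (SE 0.23, adjusted p = 0.00834). Unc13a (chr8:71624417-71671757, reverse strand), the priming factor Munc13-1, was 24.4, 34.9, 23.5 and 30.6 CPM in WT and between 20.8 and 23.3 CPM in FUN025/+ eyecups, without overlap but with WT replicate 3 just above the highest FUN025/+ library. Groups without overlap made up 10.9% of all genes, and Unc13a was the only 1 of the 34. Its log2 fold change was -0.34 (SE 0.09, adjusted p = 0.0222). Rab3a (chr8:70754679-70758677, forward strand), the GTPase that carries vesicles to release sites, was 26.8, 38.4, 24.99 and 30.1 CPM in WT and between 23.0 and 25.2 CPM in FUN025/+ eyecups, with a log2 fold change of -0.32 (SE 0.10, adjusted p = 0.0443). Rab3a passed in 5 of 15 fits that each left out 1 mouse, Unc13a in 13 and Rims1 in 15. Of the exon bases, 3.92% of Unc13a lie under Colgalt1 and 1.30% of Rab3a under Mpv17l2, and 0 of Rims1 under another gene.

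FUN025/FUN025 eyecups were compared with WT eyecups to ask the same of 2 mutant alleles. Again 3 of the 34 genes fell and 0 rose, where 14% of all genes were called, 7% lower and 7.03% higher. Unc13a was between 19.3 and 23.0 CPM, below all WT libraries, with a log2 fold change of -0.41 (SE 0.10, adjusted p = 0.00964). Groups that did not overlap made up 14.8% of all genes, and 1 of the 34. Rab3a was 19.4, 23.3, 26.1, 26.1 and 23.2 CPM, with a log2 fold change of -0.35 (SE 0.11, adjusted p = 0.0347). Dnm1 (chr2:32308471-32353338, reverse strand), the dynamin that cuts retrieved vesicles from the membrane, was 57.2, 71.4, 45.8 and 53.8 CPM in WT and 50.03, 47.6, 45.1, 39.96 and 38.9 CPM in FUN025/FUN025 eyecups, with a log2 fold change of -0.36 (SE 0.11, adjusted p = 0.0447). With 1 mouse left out, Unc13a passed in 15 of 15 fits, Rab3a in 10 and Dnm1 in 4. Rims1 was 8.33, 5.76, 7.94, 5.33 and 4.08 CPM, and its log2 fold change of -0.48 (SE 0.23) did not pass (adjusted p = 0.191). Both comparisons share the WT libraries.

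**Figure D4:**
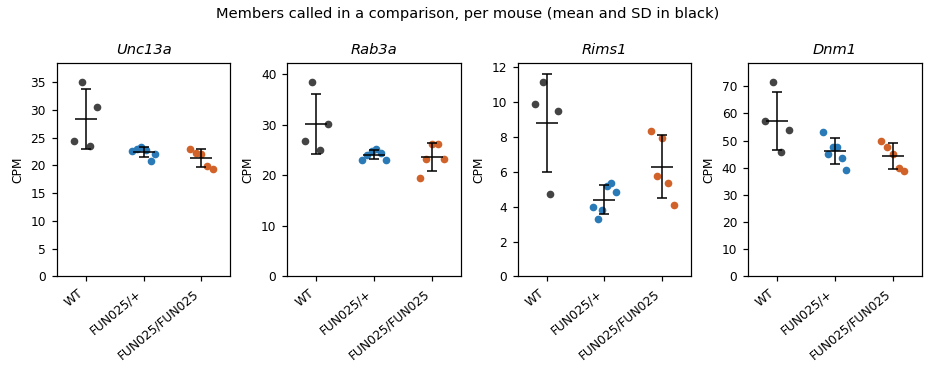
CPM of the 4 genes called in a comparison, 1 point per mouse, with the mean and SD of each genotype in black and axes from 0. Unc13a lies lower in all mutant libraries than in all WT libraries, while Rab3a and Dnm1 overlap and Rims1 has 1 WT library at 4.74 CPM.

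Between FUN025/FUN025 and FUN025/+ eyecups 0 of the 34 genes were called by edgeR's quasi-likelihood test, where 0.522% of all genes were (0.195% lower and 0.327% higher). Ranges without overlap were found for 0 of the 34 and 1.13% of all genes, and 19 of the 34 log2 fold changes, against 51.8% of all genes, lay below 0. An unadjusted p under 0.05 was found for 3 of them and for 1181 of all 18979 genes. The 3 were Rims1, Sv2b and Slc18a2, whose log2 fold changes were 0.52, -0.17 and -0.35 (SE 0.22, 0.07 and 0.14). DESeq2 and limma-trend also called 0.

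Most of the 34 log2 fold changes lay below 0 against WT, whether called or not: 27 in FUN025/+ eyecups, with a median of -0.31, and 25 in FUN025/FUN025 eyecups, with a median of -0.21. Over all genes 50.5% and 51.4% lay below 0, with medians of -0.0024 and -0.0070. The widest differences belonged to genes that did not pass. Slc17a7 had a log2 fold change of -1.60 in both comparisons (SE 0.68 and 0.72, adjusted p = 0.141 and 0.164). Snap25 had -1.75 and -1.43 (SE 0.74 and 0.77), Cplx4 -1.45 and -1.62 (SE 0.68 and 0.72), and Cplx3 -1.42 and -1.52 (SE 0.63 and 0.67). Of the 8 ribbon and glutamate genes tested 0 were called in either comparison, 7 lay below 0 in each, and the medians were -0.58 and -0.78. By edgeR's unadjusted p, 4 of these 8 were under 0.05 in each, as were 5473 and 5432 of all 18979 genes, and DESeq2 called 1 in each, against 2983 and 3039 of all genes, Sv2b higher in FUN025/+ and Bsn lower in FUN025/FUN025 eyecups. Of the 25 shared genes, 19 and 17 lay below 0, with medians of -0.26 and -0.16. Slc18a2 had -0.026 (SE 0.14) and -0.37 (SE 0.15), and did not pass. In a bulk sample fewer cells of a type and less RNA per cell cannot be told apart.

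WT replicate 2 carried much of this shift. Without it the median of the 34 genes was -0.053 in FUN025/+ and -0.10 in FUN025/FUN025 eyecups, with 18 and 19 below 0. The ribbon and glutamate medians became -0.19 and -0.38, and Slc17a7 became -0.68 in both. Snap25 became -0.50 and -0.18, Cplx4 -0.41 and -0.58, Cplx3 -0.45 and -0.55, and Syp -0.37 and -0.28. Rims1 was then the only gene called in FUN025/+ eyecups (-0.86, adjusted p = 0.0336) and Unc13a the only one in FUN025/FUN025 eyecups (-0.28, adjusted p = 0.0402), by edgeR. The other calls were lost with smaller values: Unc13a in FUN025/+ eyecups became -0.22 (adjusted p = 0.107), Rab3a -0.17 and -0.20 (adjusted p = 0.216 and 0.160), and Dnm1 in FUN025/FUN025 eyecups -0.23 (adjusted p = 0.152). With the rod marker level as a covariate 0 of the 34 genes were called in either comparison, the medians were -0.0012 and 0.013, and edgeR gave -0.86 for Rims1 in FUN025/+ eyecups (adjusted p = 0.0537) and -0.32 for Unc13a in FUN025/FUN025 eyecups (adjusted p = 0.0565). In the same fit Unc13a in FUN025/+ eyecups had -0.25 (adjusted p = 0.140), Rab3a -0.19 and -0.22 (adjusted p = 0.303 and 0.202) and Dnm1 in FUN025/FUN025 eyecups -0.17 (adjusted p = 0.263). All 11 rod markers lay below 0 in both comparisons, with medians of -1.80 and -1.89; edgeR called 0, and 8 and 10 of them had an unadjusted p under 0.05. The part of the rod level in the differences between genotypes was not tested beyond these values.

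**Figure D5:**
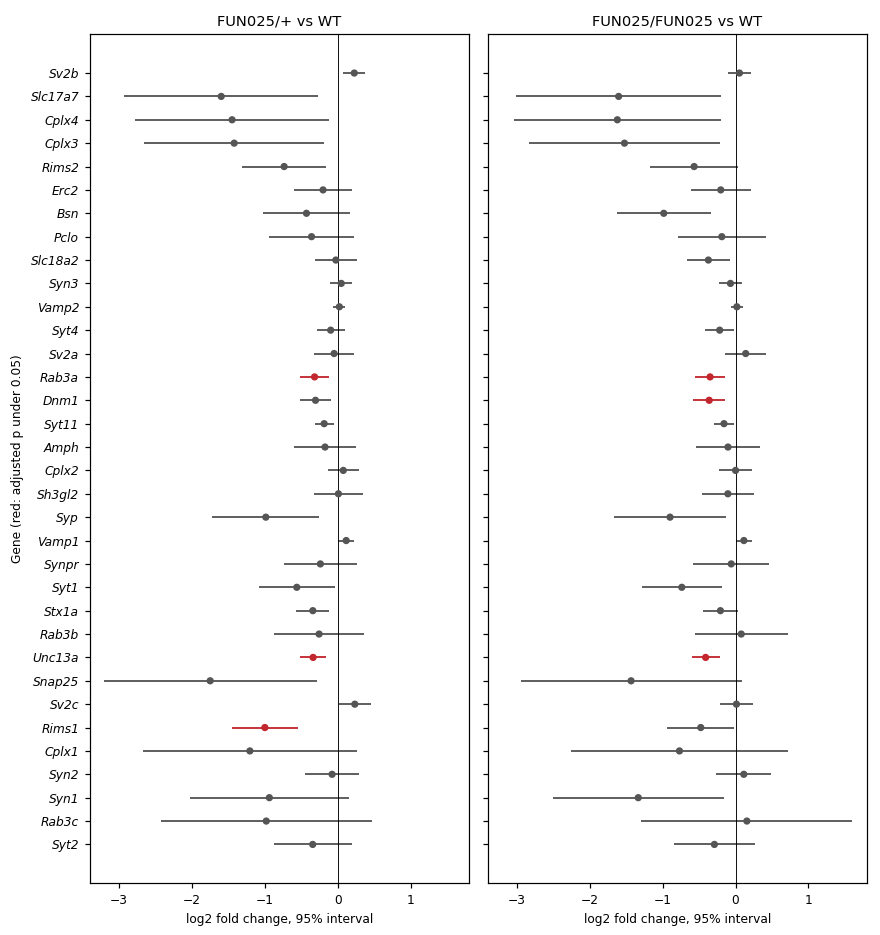
Log2 fold change with its 95% interval for the 34 genes tested, FUN025/+ against WT on the left and FUN025/FUN025 against WT on the right, in the same gene order as the heatmap; red marks an adjusted p under 0.05. The red genes, Rims1, Unc13a and Rab3a on the left and Unc13a, Rab3a and Dnm1 on the right, have narrower intervals than Slc17a7, Cplx4, Cplx3 and Snap25, whose differences are wider.

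Read by role, the SNAREs divided. Vamp2 was 209, 221, 194 and 205 CPM in WT and between 201 and 219 CPM in FUN025/+ eyecups, with log2 fold changes of 0.022 and 0.018 against WT and 95% intervals from -0.062 to 0.11 and from -0.069 to 0.11. Its paralogue Vamp1 had 0.12 and 0.11, and Stx1a, a SNARE of the plasma membrane, -0.34 and -0.21, and 0 of these 3 passed, with adjusted p from 0.0576 to 0.824 by edgeR. Of the 6 active zone genes all lay below 0 in both comparisons, but without WT replicate 2 the values of Bsn, Pclo and Erc2 in FUN025/+ eyecups were 0.033, 0.24 and 0.087, and those of Pclo and Erc2 in FUN025/FUN025 eyecups were 0.42 and 0.089. The calcium sensors Syt1, Syt2, Syt4 and Syt11 also all lay below 0, between -0.56 and -0.097 in FUN025/+ and between -0.74 and -0.16 in FUN025/FUN025 eyecups, and 0 were called. Without WT replicate 2, Syt2 had 0.13 and 0.18 and Syt1 -0.099 and -0.27. Syt4 was 159.7, 155, 155 and 179.96 CPM in WT, and Syn3 was 2472, 2349, 2575 and 2651 CPM. Syn3 had log2 fold changes of 0.048 and -0.070 (SE 0.08 for each). All 4 complexins were highest in WT replicate 2. Complexins 1 and 2 (Cplx1 and Cplx2) act at conventional synapses. Cplx2 had 0.076 and 0.00038, and 0.24 and 0.17 without that library, and Cplx1 had -1.21 and -0.77 (SE 0.75 and 0.76), and -0.099 and 0.34 without it. The SV2 proteins Sv2a, Sv2b and Sv2c lay between -0.050 and 0.23, and Sv2b in FUN025/+ eyecups was nearest to the threshold (0.23, SE 0.08, adjusted p = 0.0563).

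A further set of shared genes followed other libraries. Rab3c, a neuronal Rab3 GTPase, was highest in FUN025/FUN025 replicates 4 and 5 (11.9 and 9.51 CPM), WT replicate 2 (9.02 CPM) and FUN025/+ replicate 4 (7.72 CPM), and lowest in FUN025/+ replicate 5 (0.469 CPM). Synpr, a vesicle membrane protein related to synaptophysin, was highest in WT replicate 2 (47.3 CPM), FUN025/FUN025 replicate 4 (46.4 CPM) and FUN025/+ replicate 4 (46.1 CPM), and Amph, which recruits dynamin, in the same 3 libraries (45.9, 44.7 and 39.7 CPM). In the other 12 libraries Synpr was between 21.5 and 34.1 CPM and Amph between 22.8 and 32.4 CPM. Among marker lists the smooth muscle sum was also high in FUN025/FUN025 replicates 4 and 5 and FUN025/+ replicate 4 (1209.6, 1052 and 947 CPM), but not in WT replicate 2 (770.1 CPM), against 508 to 834 CPM in the other libraries. The summed bipolar markers, mostly Trpm1, were highest in the same 3 libraries as Synpr and Amph (1163, 1111 and 954 CPM, against at most 906 CPM elsewhere). The amacrine marker Tfap2b was highest in the 4 libraries where Rab3c was (up to 74.3 CPM, against at most 55.7 CPM elsewhere). The other amacrine markers, Gad1, Gad2, Tfap2a and Slc6a9, did not have that order. Gad1 was 16.7 CPM in WT replicate 2 but 1.15 and 0.543 CPM in FUN025/FUN025 replicates 4 and 5. The part of these markers in the levels was not tested. Rab3c, Synpr and Amph had no call in any comparison, and their highest libraries came from all 3 genotypes.

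Companion genes of the same pathways were counted in the same fit. Of 30 other genes of release and retrieval 4 fell and 0 rose in FUN025/+ eyecups (Bin1, Doc2b, Syt5 and Scamp5) and 4 fell and 0 rose in FUN025/FUN025 eyecups (Bin1, Syt7, Rims4 and Doc2b), with 28 below 0 in each. Over all genes 6.61% and 7% fell. Bin1, an amphiphysin that bends membranes and is abundant in muscle, had log2 fold changes of -0.31 and -0.21 (adjusted p = 0.00338 and 0.0366), and Doc2b, a calcium sensor of spontaneous release, -0.76 and -0.59 (adjusted p = 0.0116 and 0.0467). The most abundant of the 30, Syngr1 and Dnajc5, averaged 168 and 150.3 CPM and were not called. Of 10 ribbon companions edgeR called 0 in either comparison (4 and 6 had an unadjusted p under 0.05, as had 5473 and 5432 of all 18979 genes), 10 and 9 lay below 0, and the highest, Ctbp2 (the gene of the ribbon protein RIBEYE, which also codes for a widely expressed corepressor) and Stx3, averaged 91.2 and 89.6 CPM. Of 9 tested genes of neurons and axons 1 fell in each comparison, the neuronal ubiquitin hydrolase Uchl1 (-0.47 and -0.46), and all 9 lay below 0. Without WT replicate 2 the counts were 1 and 0 of 30 and 0 and 0 of 9 by edgeR. Bin1 then had -0.29 and -0.20 (adjusted p = 0.0127 and 0.0916), close to its values with that library, while Doc2b had -0.44 and -0.28 (adjusted p = 0.0569 and 0.247) and Uchl1 -0.33 and -0.32 (adjusted p = 0.134 and 0.162).

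The comparisons of the autonomic companions between genotypes are not reported here. Some markers of other cell types were called in the comparisons with WT, where 13.7% and 14% of all genes were called, 6.61% and 7% lower. Of 5 striated muscle markers 1 fell in each, Acta1 (-0.90 and -0.83), and of 4 choroid endothelium markers 1 and 3 fell. Of the 3 ganglion cell markers tested, Rbpms fell in both (-0.27 and -0.23) and Sncg in FUN025/+ eyecups (-0.35). In FUN025/FUN025 eyecups the Schwann cell marker Sox10 (-0.32) and the cone marker Pde6c (-1.13) also fell, and the immune marker Cd68 rose (0.32). The summed ganglion cell level was 69.0 to 77.7 CPM in WT, 55.2 to 67.1 CPM in FUN025/+ and 59.2 to 65.6 CPM in FUN025/FUN025 eyecups. Most of this sum was Rbpms, at 60.2 to 65.1, 48.2 to 58.7 and 51.0 to 58.0 CPM in the same order. The markers Pou4f1, Pou4f2 and Isl2 were at most 3.22, 0.698 and 0.322 CPM, each in WT replicate 2. The summed striated muscle level was 2504 to 5359 CPM in WT, 1367 to 4048 CPM in FUN025/+ and 2342 to 3122 CPM in FUN025/FUN025 eyecups, and the summed Schwann cell level 577 to 643, 514 to 796 and 507 to 716 CPM; their part in the results above was not tested.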

How the data were processed

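The authors deposited unnormalized read counts for 55421 Ensembl genes in each of 15 libraries. Per the labels and the study's methods, eyecups were pooled within a mouse, mRNA was selected with Oligo(dT), NEBNext Ultra libraries were read as paired ends, and the submitters' processing notes name FastQC 0.11.8, Trimmomatic 0.39, HISAT2 2.1.0, SAMtools, featureCounts 2.0.0 and GRCm38; the strand setting is not given in the sources used here. Reads on exons of 2 genes may therefore be lost or assigned to either.

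Genotypes came from the sample titles. As in the study's methods, genes in the bottom 15% by variance were dropped, which left 47108. Low counts were then removed with filterByExpr (18979 left), in place of an abundance threshold that is not given. Counts were scaled by TMM and fitted over all 15 mice with edgeR 4.0.16 (quasi-likelihood, robust; R 4.3.3), with Benjamini-Hochberg adjustment over all genes and a threshold of 0.05. A 95% interval stands beside fold changes where given. The scripts were tested on simulated counts. Alternatives used DESeq2 1.42.0, limma 3.58.1, other scalings and filters, a rod covariate, the replicate number as a block and leaving out each mouse; adjustment of the correlations over all genes was added after seeing the data. Python 3.11.15 with numpy 2.4.6, pandas 2.3.3 and matplotlib 3.10.9 was used for the rest.

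The genes and lists were chosen with earlier results of these data known. All 40 genes are accounted for; the called genes, the ribbon and autonomic genes and the 3 shared genes of highest mean CPM (Syn3, Vamp2 and Syt4) are given by library or range, and from each companion list the called genes and the 2 of highest mean CPM. Some items that this rule names are not reported here. Other genes named by role or library, the motifs and the genes whose promoters are shown were chosen after their values were seen. No pair of libraries held identical counts, and the lowest chi-square per gene between libraries of a genotype was 3.23. Mice of the same replicate number are different animals.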

Additional observations from a re-analysis of the deposited data

Results flagged for a closer look

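Of 120 sets of libraries, each 1 of the 40 genes in 1 genotype, 15 held a library set apart from the others by Dixon's criterion at 95%, where chance sets apart about 1 in 20. In 10 of these the library was WT replicate 2. There Snap25 was 64.5 CPM against 6.88 to 14.4 CPM in the other WT libraries, Syt1 67.6 against 22.8 to 30.4 CPM, Syn1 8.755 against 1.197 to 2.22 CPM, Syp 62.8 against 17.6 to 23.4 CPM, Sv2a 87.9 against 59.5 to 62.3 CPM, Cplx1 7.30 against 1.25 to 1.39 CPM, Pclo 13.75 against 3.77 to 5.05 CPM, Slc17a6 4.40 against 0.1496 to 0.444 CPM, Slc32a1 5.85 against 0.299 to 0.722 CPM, and Chat 0.967 against 0.0997 to 0.167 CPM (18 counts against 2 to 3). The summed rod markers of that library were 2442 CPM, 4.98 times the mean of the other WT libraries.

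In FUN025/+ eyecups, Sv2a was 89.3 CPM in replicate 4 against 56.6 to 67.5 CPM. In FUN025/FUN025 eyecups, Stx1a (10.42 CPM) and Syt2 (2.355 CPM) were high in replicate 5, Syn2 (8.07 CPM) in replicate 2 and Erc2 (5.17 CPM) in replicate 4, against at most 7.698, 1.604, 5.744 and 3.535 CPM in the other libraries of that genotype.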

How the results depend on the processing

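Over 25 alternatives, 2406 of 2538 values of the 102 fold changes kept their direction, 113 changed sign from a reported value within 1 standard error of 0, and 19 from a wider one; 0 called values changed sign. Genes called numbered 1 to 5 in FUN025/+ and 1 to 4 in FUN025/FUN025 eyecups with 1 mouse left out: without WT replicate 2 or 4 there was 1 (Rims1) in FUN025/+ eyecups and without WT replicate 1 or 3 there were 5, and without WT replicate 2 or FUN025/FUN025 replicate 2 or 5 there was 1 (Unc13a) in FUN025/FUN025 eyecups. Rims1 in FUN025/+ and Unc13a in FUN025/FUN025 eyecups passed in 15 of 15 such fits, Rab3a in 5 and 10, and Dnm1 in FUN025/FUN025 eyecups in 4. A fit of the compared genotypes alone left 1 gene (Unc13a) in FUN025/FUN025 eyecups. A replicate block by number left 0 called genes in FUN025/+ and 2 (Dnm1 and Unc13a) in FUN025/FUN025 eyecups; deviations of same-numbered mice correlated between -0.38 and 0.13 over genes, so the numbers do not pair the mice. With the rod covariate 0 were called in each, and, among values more than 1 standard error from 0, the sign changed for Syn1 (0.19), Cplx1 (0.25), Cplx4 (0.34), Bsn (0.28), Pclo (0.29) and Erc2 (0.0089) in FUN025/+ and for Snap25 (0.50), Syt2 (0.0051), Cplx1 (0.59), Cplx3 (0.036), Cplx4 (0.23) and Slc17a7 (0.093) in FUN025/FUN025 eyecups. With 1 mouse left out, and under the same limit, the values whose sign changed ran from -0.53 to 0.13 for Syt2, -1.23 to 0.090 for Syn1, -0.61 to 0.033 for Bsn, -0.55 to 0.24 for Pclo and -0.32 to 0.087 for Erc2 in FUN025/+ eyecups, and from -0.47 to 0.18 for Syt2 and -1.02 to 0.34 for Cplx1 in FUN025/FUN025 eyecups. The rod correlation passed for 14 genes when adjusted over the 34 relations, for 13 with genotype means subtracted and 5 without the 2 farthest mice, and for 8 when adjusted over all genes, an adjustment chosen after seeing the data. The causes of these changes were not tested. DESeq2 also called Sv2b in FUN025/+ (adjusted p = 0.0339) and Bsn in FUN025/FUN025 eyecups (0.0199). Depth limits Th, Dbh, Chat, Slc18a3, Slc17a6 and Slc32a1, which the low-count filter removed; without that filter edgeR called 0 of these 6.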

Other observations

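The release genes Unc13c, which codes for Munc13-3, and Rph3a, which codes for the Rab3 effector rabphilin, differed widely between libraries without a call in any comparison; they were chosen after their values were seen. Unc13c was 216, 85.6, 84.7 and 212 CPM in WT replicates 1 to 4, and Rph3a was 42.5, 25.4, 16.01 and 35.8 CPM in the same libraries. Both were lowest in FUN025/+ replicate 1, at 36.2 and 6.31 CPM. The summed striated muscle markers were 4753, 2504, 3298 and 5359 CPM in WT replicates 1 to 4 and lowest, at 1367 CPM, in FUN025/+ replicate 1. Munc13-1 (Unc13a) had a different order of WT libraries, at 24.4, 34.9, 23.5 and 30.6 CPM.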
